A study of Mus musculus with 19 samples.

Results

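The measurements described here are the differences between 4 hepatocellular adenomas (HCA) and the unaffected livers of the same animals, 1 pair per mouse, measured as DNA copy number by array comparative genomic hybridization (aCGH). A pair was formed from the HCA and the unaffected liver that carry the same mouse number, which used 8 of the 19 arrays of the series. Mice 2430 (16.9 months) and 6199 (12 months) were p53(f/f), and mice 5884 (14.2 months) and 5901 (12 months) were p53(f/+). All 4 were female, Mad2(f/f) and AlbuminCre on a strain background that the labels give as the same, so tumor and liver of a pair share sex, age, strain, the floxed alleles and the Cre driver. Albumin promoters drive Cre in hepatocytes, the cells from which HCA arises. Cells of the liver and of the tumor in which Cre was not active, such as infiltrating immune cells, keep intact alleles. Each array holds DNA of a whole piece of tissue.

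Mad2l1 encodes MAD2, a protein of the spindle assembly checkpoint that holds cells in mitosis until every chromosome is attached to the spindle. Cells without it missegregate whole chromosomes, which makes a gain or a loss of an entire chromosome the usual form of its chromosomal instability (CIN). Trp53 encodes p53, which restrains the growth of cells with damaged or abnormal genomes. Hepatocytes are often polyploid, and HCA is a benign tumor of hepatocytes that can precede hepatocellular carcinoma (HCC).

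On each array the DNA of a sample competed with liver DNA of the opposite sex, and the log2 ratio of both signals, after the median over its autosomal probes was subtracted from each array, is called the aCGH ratio. Centring sets every autosome against the middle of the same genome, so a value says that a chromosome is higher or lower than the other autosomes and not how many copies a cell holds. The scale can be read from X, on which females carry 2 copies and the male control 1. X had a ratio of 0.771 to 1.07 on the 8 arrays, where an undamped measurement would give 1. Both ends of this range are HCAs, in which a change of X itself was not tested, and the livers had 0.885 to 0.973. Undamped, 1 added copy of an autosome in every diploid cell would give 0.585. Between 98.4% and 99.6% of the autosomal spots lay well above background, with sample signals 1.84 to 2.93 times the local background. The livers had 76 whole-autosome ratios between −0.144 and 0.0728, and 0 of them beyond 0.3. The lowest were Chr13 of mouse 6199 and Chr4 of mouse 5901 (−0.117). The HCA ratios reached from −0.374 to 0.521, with 12 of 76 beyond 0.3. Within 3 of the pairs both arrays were scanned on the same day. The HCA and the liver of mouse 5901 were scanned on different days, and values without this pair are given where they change a result.

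HCAs differed from their own livers by whole autosomes. Chr15, Chr1, Chr18 and Chr16 were higher and Chr3, Chr12, Chr13, Chr9 and Chr10 were lower than in the liver of the same mouse, with mean differences between −0.235 and 0.391. These 9 of 19 autosomes (47.4%) passed the threshold, an adjusted p of 0.05 in limma with Benjamini-Hochberg adjustment over 19 autosomes. The 4 higher ones are 21.1% and the 5 lower ones 26.3% of the autosomes tested. A more general pattern was 1 sign in all 4 pairs, which 13 of 19 autosomes (68.4%) showed, 6 of them higher and 7 lower. This count includes Chr6 and Chr8, on which mouse 5884 had parts above and parts below its liver. The moderation in limma estimated no difference in spread among autosomes and gave all 19 autosomes the same standard error of 0.0562, so a chromosome whose pairs scatter widely is judged by the spread of the others. In bulk DNA, a change in some of the cells and a smaller change in all of them cannot be told apart.

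**Figure D1:**
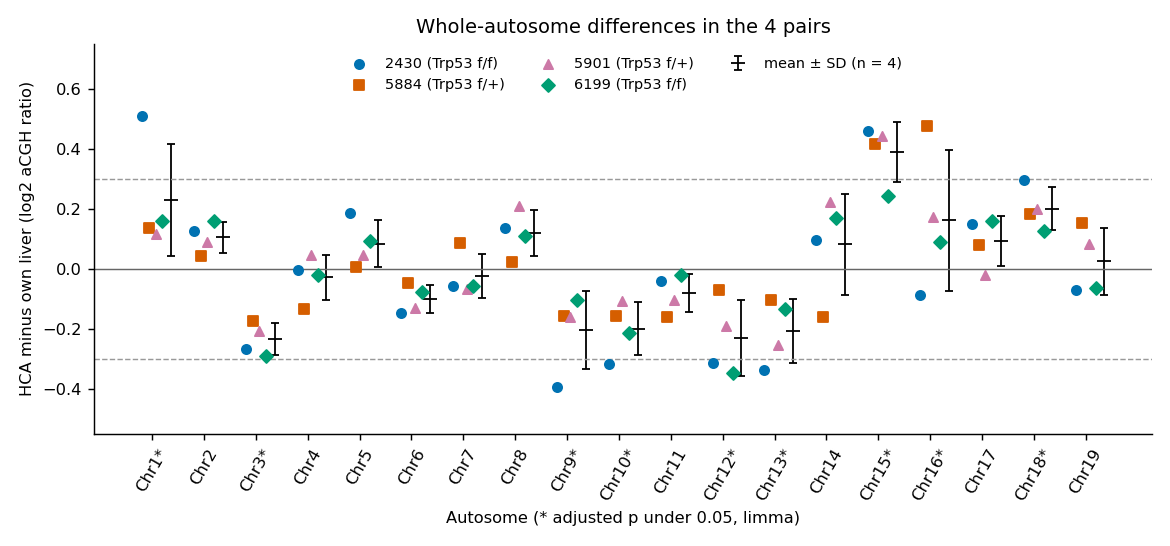
Difference in mean aCGH ratio between HCA and own liver (y axis, log2) for the 19 autosomes (x axis). Each symbol is 1 pair, black bars give the mean ± SD of 4 pairs, dashed lines mark 0.3 and −0.3, and asterisks mark the 9 autosomes past the threshold. Chr15 is higher in all 4 pairs, between 0.243 and 0.459, and Chr3 is lower in all 4, between −0.291 and −0.174.

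Chr15, which carries the growth regulator Myc and the adhesion kinase gene Ptk2, had the largest difference. The difference was 0.459 in mouse 2430, 0.416 in mouse 5884, 0.444 in mouse 5901 and 0.243 in mouse 6199. Thus 3 pairs lay close together and the fourth was lower, while the 4 livers stood at −0.0116, −0.0274, 0.0189 and 0.0181. All 4 HCAs lay above all 4 livers. The mean difference was 0.391 ± 0.1001 (SD, n = 4, limma adjusted p = 7.41e-08).

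Chr1 was higher in all pairs, but by very different amounts. Its difference was 0.510 in mouse 2430, 0.137 in mouse 5884, 0.115 in mouse 5901 and 0.161 in mouse 6199. Mouse 2430 stood far from the other 3, whose values span less than 0.05. The mean was 0.231 ± 0.187 (SD, n = 4, limma adjusted p = 0.000625), and it was 0.138 without mouse 2430, still past the threshold. Both calls use the spread pooled over autosomes, so this p does not measure how closely the 4 pairs agreed on Chr1. The p53 antagonist gene Mdm4 lies on this chromosome.

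Chr18, which carries the growth-restraining genes Apc and Smad4, had the smallest SD of the higher autosomes past the threshold. Its difference was 0.297 in mouse 2430, 0.182 in mouse 5884, 0.199 in mouse 5901 and 0.127 in mouse 6199. The HCA ratios of 0.179 to 0.304 lay above the liver ratios, which were 0.00684 to 0.0728. The mean was 0.201 ± 0.0709 (SD, n = 4, limma adjusted p = 0.0019).

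Chr16 was higher in 3 pairs and lower in the fourth. Its difference was 0.476 in mouse 5884, 0.172 in mouse 5901, 0.0891 in mouse 6199 and −0.0865 in mouse 2430. The HCA of mouse 2430 lay below all 4 livers and the other HCAs lay above them. The mean of 0.163 ± 0.235 (SD, n = 4, limma adjusted p = 0.0114) passed the threshold with the spread pooled over autosomes, and the SD of this chromosome was the widest of the 19. The call was lost without mouse 5884 (0.0582, adjusted p = 0.41) and without mouse 5901 (0.16, adjusted p = 0.0739), the mean was 0.246 without mouse 2430, and without the mouse as a block the adjusted p was 0.114.

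Chr3 was the most even of the lower autosomes. Its difference was −0.268 in mouse 2430, −0.174 in mouse 5884, −0.207 in mouse 5901 and −0.291 in mouse 6199. The 4 HCAs and the 4 livers did not overlap, as on Chr9, Chr10, Chr12 and Chr13. Among the 19 autosomes this was also so on Chr1, Chr15 and Chr18, and on Chr2, Chr6 and Chr8, which did not pass the threshold. The mean was −0.235 ± 0.0538 (SD, n = 4, limma adjusted p = 0.000625).

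Chr12, which carries Sav1, a component of the growth-restraining Hippo pathway, was low in both p53(f/f) mice and less so in the others. Its difference was −0.315 in mouse 2430 and −0.348 in mouse 6199, against −0.0707 in mouse 5884 and −0.189 in mouse 5901. Chr12 of mouse 5884 was the smallest in size of the 20 values of the 5 lower autosomes. The mean was −0.231 ± 0.127 (SD, n = 4, limma adjusted p = 0.000625).

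Chr13 differed by −0.338 in mouse 2430, −0.105 in mouse 5884, −0.253 in mouse 5901 and −0.135 in mouse 6199. This chromosome carries Il6st, the interleukin-6 signal transducer that is mutated in some human HCAs, and Tert, the catalytic subunit of telomerase. The liver of mouse 6199 was itself low, at −0.144 against 0.0166, −0.0669 and 0.0231 in the other livers, so that the HCA of this mouse was at −0.279. The mean difference was −0.208 ± 0.108 (SD, n = 4, limma adjusted p = 0.00189).

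Chr9 and Chr10 were lower in every pair, most so in mouse 2430. Chr9, which carries the gene of β-catenin, Ctnnb1, differed by −0.393 in mouse 2430, −0.159 in mouse 5884, −0.159 in mouse 5901 and −0.105 in mouse 6199. Its mean was −0.204 ± 0.129 (SD, n = 4, limma adjusted p = 0.0019). Chr10, which carries Mdm2, Cdk4 and the Hippo kinase gene Lats1, differed by −0.316 in mouse 2430, −0.159 in mouse 5884, −0.109 in mouse 5901 and −0.213 in mouse 6199. Its mean was −0.199 ± 0.0887 (SD, n = 4, limma adjusted p = 0.0019).

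**Figure D2:**
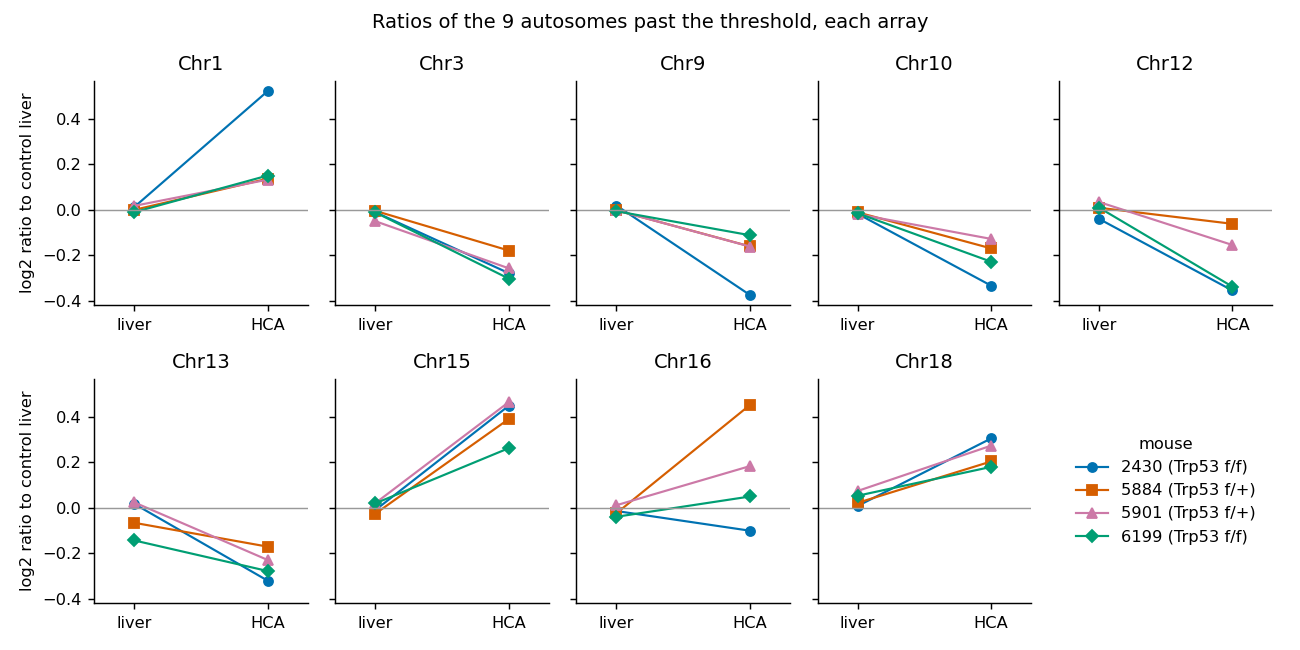
aCGH ratio to control liver (y axis, log2) of the own liver and the HCA of each mouse, joined by a line, for the 9 autosomes past the threshold. The livers lie near 0 on every panel, the lowest being −0.144 on Chr13 in mouse 6199, and all lines of a panel run the same way except that of mouse 2430 on Chr16.

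The other 10 autosomes had mean differences between −0.0999 on Chr6 and 0.119 on Chr8 and did not pass the threshold. Chr8 was closest, at 0.119 ± 0.0777 (SD, n = 4, limma adjusted p = 0.0731), and was higher in all 4 pairs by 0.0215 to 0.209. Chr2 (0.105), Chr8 and Chr5 (0.0841) were higher in all 4 pairs, and Chr6 (−0.0999) and Chr11 (−0.0809) were lower in all 4. For mouse 5884 the means of Chr6 and Chr8 are taken over parts of opposite sign. Without mouse 5884, the autosomes Chr2 (0.1252, limma adjusted p = 0.0342), Chr6 (−0.118, adjusted p = 0.0363), Chr8 (0.152, adjusted p = 0.0246) and Chr14 (0.163, adjusted p = 0.0246) passed the threshold. Chr11 carries Trp53 and Chr6 carries Mad2l1. The floxed exons themselves were not analysed here. Chr14 (0.0821), Chr17 (0.0926), Chr19 (0.0255), Chr4 (−0.0286) and Chr7 (−0.0241) went both ways among the pairs. On Chr14 the pair of mouse 5884 was −0.16 and the other 3 were 0.0972 to 0.222. On Chr7 the pair of mouse 5884 was 0.0863, and the other 3 were −0.0666 to −0.0573. Chr19 was −0.0709 and −0.0642 in the p53(f/f) pairs and 0.153 and 0.0837 in the p53(f/+) pairs.

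The differences ran along the full length of the chromosomes. The autosomes were divided into 11063 windows of 20 neighbouring probes with a median size of 160 kb. In limma fits of the windows, 4623 (41.8%) passed the threshold, 1938 of them higher (17.5%) and 2685 lower (24.3%), and 4216 of the 4623 lay on the 9 autosomes above. Over all autosomes 5898 windows (53.3%) had 1 sign in all 4 pairs. On Chr15 all 458 windows passed as higher, and each of them was higher in all 4 pairs. On Chr3, 95.9% of the windows passed as lower, on Chr12 93.4%, on Chr13 87.5%, on Chr10 84% and on Chr9 83.7%. On Chr1, 91.7% of the windows passed as higher and on Chr18 86.4%, but on Chr16 only 24.2%. Windows of 1 chromosome share its copy number and are not independent measurements of it. The count of windows fell to 1628 without mouse 6199, 1860 without mouse 2430 and 2587 without mouse 5901. With the background correction called normexp the share of higher calls was 68.6% in place of 41.9% of the windows called, and 64.3% in place of 44.4% of the autosomes called.

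**Figure D3:**
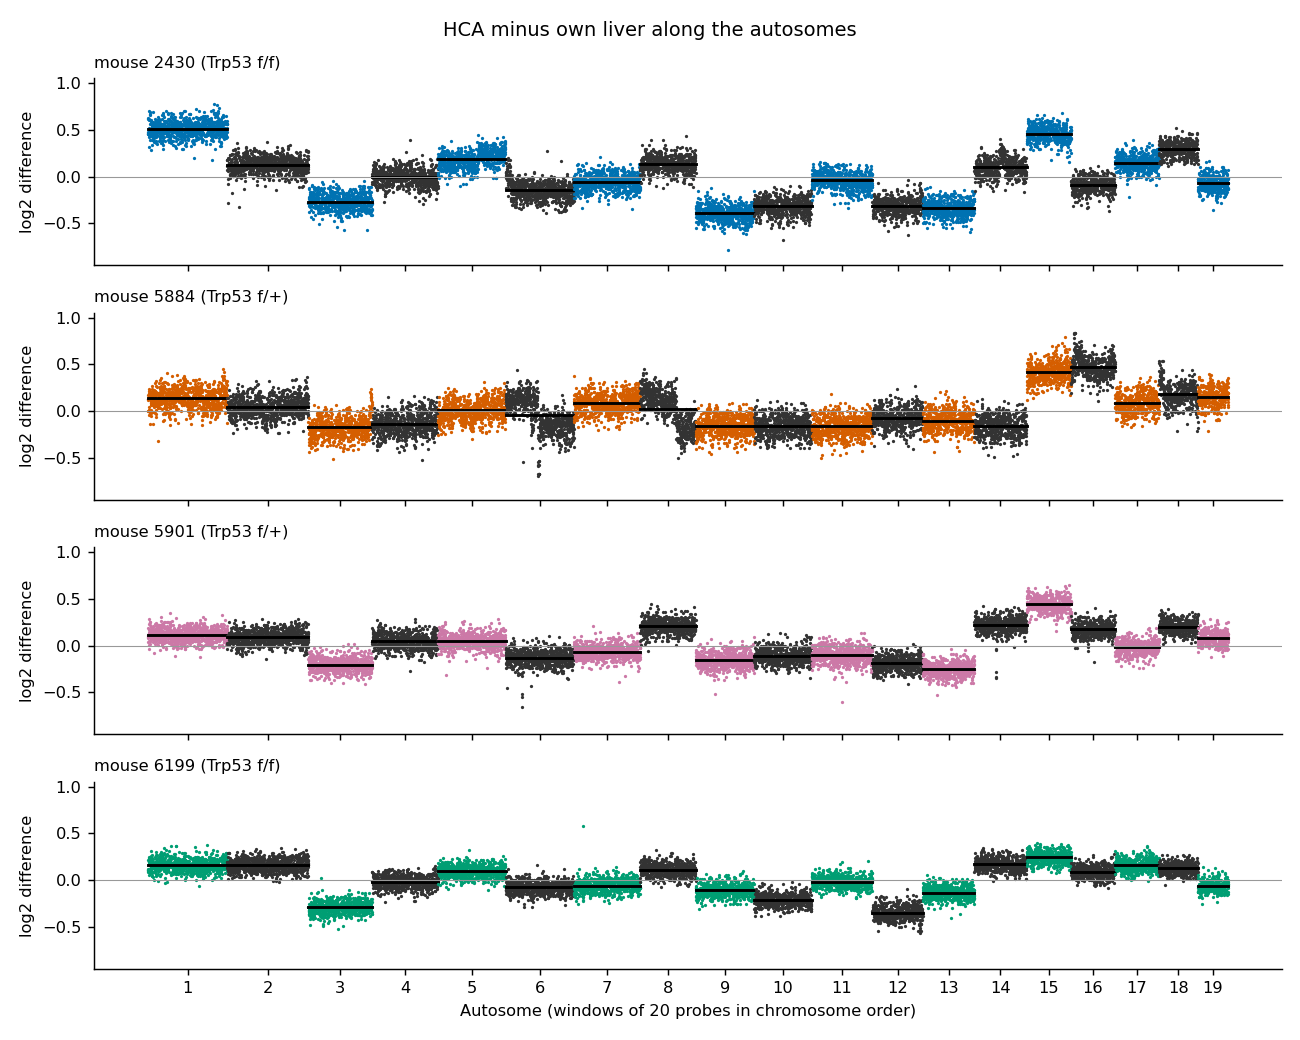
HCA minus own liver (y axis, log2) in 11063 windows of 20 probes in chromosome order (x axis), 1 panel per mouse, with black lines at the mean of each autosome. Most autosomes form 1 level from end to end, and mouse 5884 shows steps within Chr6 and Chr8.

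Each chromosome was also divided into 4 stretches with about the same number of windows. Among the 70 combinations of pair and autosome without a break, the means of the 4 stretches of a chromosome spanned 0.00416 to 0.0848, with a median of 0.025, which is small beside the differences between autosomes. Chr1 of mouse 2430 was between 0.504 and 0.523 in its 4 stretches, and Chr12 of mouse 6199 between −0.357 and −0.341. Of the spread of the windows, 90.5% in mouse 2430, 86.9% in mouse 6199, 84.5% in mouse 5901 and 68.8% in mouse 5884 lay between autosomes. The widest unbroken case was Chr5 of mouse 2430, which was at 0.147 in its first and 0.232 in its last stretch.

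The 4 pairs resembled each other in which autosomes were high or low. Over 19 autosomes, Pearson's r between the differences of 2 pairs was 0.554 to 0.858, with a median of 0.744 over the 6 combinations. The p53(f/f) pairs 2430 and 6199 were most alike (r = 0.858, Spearman's rho = 0.877, the same sign on 18 of 19 autosomes). The 3 combinations with mouse 5884 were the lowest, at 0.554, 0.558 and 0.68. Without Chr15 the range was 0.434 to 0.836. The autosomes of a pair share the arrays, the centring and the base composition of their probes, and the correlations are given as a description. With the mean Cy3 signal of the control, a measure of probe brightness, the differences of a pair had correlations of 0.121 to 0.378 over the 19 autosomes, and the part of brightness in the differences was not tested.

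A whole-chromosome event was counted where the difference of an autosome lay beyond 0.3 in either direction. There were 10 events in the 4 pairs and 0 in the 4 livers against control. Mouse 2430 had 6 events, with gains of Chr1 and Chr15 and losses of Chr9, Chr10, Chr12 and Chr13. Mouse 5884 had gains of Chr15 and Chr16, mouse 5901 a gain of Chr15, and mouse 6199 a loss of Chr12. In all 10 events, 100% of the windows lay on the same side of 0 as the mean of the chromosome. Chr18 of mouse 2430, at 0.297, and Chr3 of mouse 6199, at −0.291, fell just short of the cut-off, and Chr12 of mouse 2430, at −0.315, was the smallest event counted.

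The sum of absolute autosome differences, a measure of the total departure of an HCA from its own liver, was 4.00 in mouse 2430, 2.77 in mouse 5884, 2.86 in mouse 5901 and 2.64 in mouse 6199. The same sum for each of the 4 livers against their mean was 0.304, 0.169, 0.42 and 0.326. The 2 sets did not overlap, and the HCA with the smallest sum was 2.64 against the largest liver sum of 0.42. A difference of 2 arrays carries the noise of both, while a liver against a mean that includes it carries less than that of 1 array, so the sums were not tested against each other. Probe noise, the spread between neighbouring probes, was 0.236 to 0.272 in HCAs and 0.217 to 0.285 in livers.

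Segmental changes were concentrated in mouse 5884. A break was called where neighbouring segments, each 10 windows long or longer, had means that differed by 0.2 or more, and 11 were found, of which 9 lay in mouse 5884 on Chr3, Chr6, Chr8, Chr16 and Chr18. The other 2 were in mouse 5901 on Chr14, and mice 2430 and 6199 had 0. The same rule on the 4 livers against control found 20 breaks, 4 to 6 per liver, on Chr3, Chr4, Chr12, Chr13, Chr15 and Chr19. All of these liver breaks bound stretches of 2.2 to 8.52 Mb. On the 4 HCA arrays against control the rule found 34 breaks, 4 to 12 per HCA. A difference within a pair removes steps that both arrays share, so the 11 breaks of the pairs are not to be set against the 20 of the livers. Each break of a pair was present in 1 mouse, with a step of at most 0.0907 in size at the same place in any other pair.

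Chr6 of mouse 5884 had the largest step of all. The proximal part, chr6:3024849-59928778, was higher than in the own liver by 0.115 (269 windows), and the distal part, chr6:78353810-149443224, was lower by −0.166 (355 windows). Between them, chr6:73531224-78320612 was at −0.533 over 14 windows, a step of −0.629 from the segment before it. The HCA ratio of this stretch of 4.79 Mb was −0.546 and that of the own liver −0.0132. In the other pairs the stretch differed by −0.17, −0.136 and −0.0908, with steps of −0.0147, −0.0234 and −0.0174 from the segment before it. A short segment, chr6:59950751-63277206, was at −0.189 with segments of 0.115 and 0.0963 on its sides. The mean over the chromosome, −0.047, therefore describes neither part. All positions are on NCBI37 (mm9).

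Chr8 of mouse 5884 was divided once. The proximal 87.4 Mb, chr8:3111085-90515070, was at 0.134 and the distal 41 Mb, chr8:90536327-131550805, at −0.182, a step of −0.315. In the proximal part 88% of the windows were above 0 and in the distal part 3.48%. The own liver was at 0.00432 and 0.00379 in these parts. The other 3 pairs had the same level on both sides of this place, with steps of −0.0168, −0.00708 and −0.0016. This break was found with every smallest segment and step tried and after the brightness trend was removed.

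**Figure D4:**
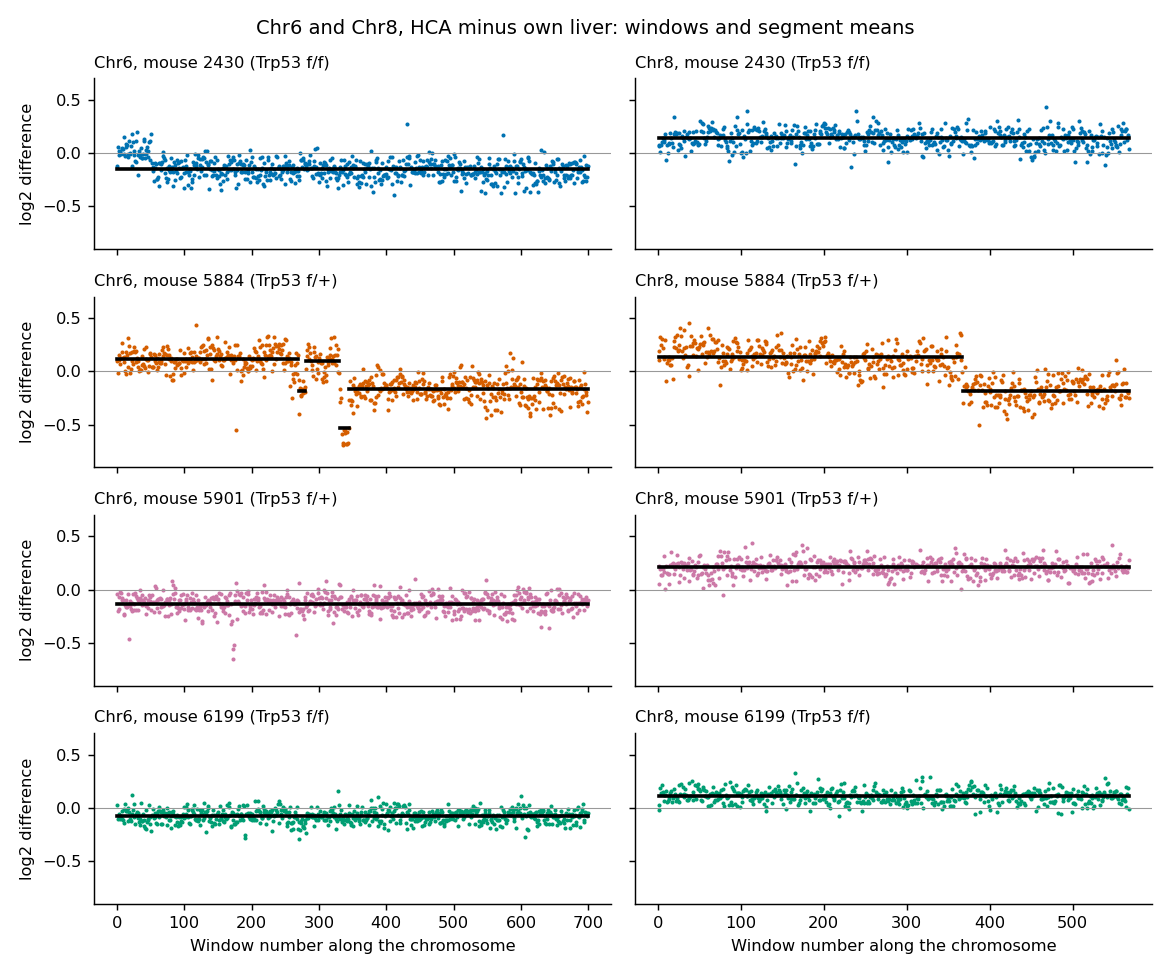
Windows of Chr6 (left) and Chr8 (right) by window number along the chromosome (x axis) and HCA minus own liver (y axis, log2) in the 4 pairs, with black lines at segment means. Mouse 5884 steps from 0.134 to −0.182 on Chr8 and reaches −0.533 on Chr6, while no step of this size was called in the other pairs, where the first windows of Chr6 lie higher in mouse 2430 and 3 windows of Chr6 are low in mouse 5901.

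The remaining breaks of mouse 5884 lay on Chr3, Chr18 and Chr16. Distal Chr3, chr3:156186173-159573224, was at 0.0974 over 17 windows while the rest of Chr3 was at −0.182. Proximal Chr18, chr18:3181133-12839168, was at 0.362 and the rest at 0.161, a step that just reached the smallest size called. On Chr16, the stretch chr16:8127892-11075026 was at 0.681 over 15 windows, between parts at 0.425 and 0.472. In the other pairs these stretches differed from their neighbours by at most 0.049 in size.

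Focal changes were looked for in each window after the median difference of its chromosome was removed. In this measure 0 of 11063 windows (0%) passed the threshold in limma, and 418 windows had an unadjusted p under 0.05, 3.78% of those tested. The same sign in all 4 pairs was found in 1324 windows (12%). Thus no focal change shared by the HCAs was detectable with 4 pairs and a median standard error of 0.0385. Of the 10 windows with the largest mean among those of 1 sign in all pairs, 7 lay on Chr6, 2 on Chr8 and 1 on Chr14, and their means were −0.214 to 0.159. In 8 of these 10 the value of mouse 5884 was the largest of the 4 in size.

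Single pairs held windows beyond 0.3 in this measure. There were 19 in mouse 2430, 167 in mouse 5884, 14 in mouse 5901 and 2 in mouse 6199. Of those of mouse 5884, 62 lay on Chr8 and 55 on Chr6, both of which were divided into segments in this mouse. Runs of at least 2 neighbouring windows were found in mouse 5884 (17 runs, 9 on Chr8, 6 on Chr6 and 1 each on Chr3 and Chr16) and mouse 5901 (2 runs), and in 0 places in mice 2430 and 6199. The median of a divided chromosome does not describe its parts, so windows of a segment are shifted together. All 9 runs on Chr8 were lower and lay in its distal segment, which was at −0.182 as a whole. Runs on divided chromosomes thus hold part of the steps between segments and are not a count of separate focal changes. The longest run, chr6:75334671-78320612 in mouse 5884, covered 11 windows at a within-chromosome difference of −0.556. Its core held the 3 lowest windows of this mouse, at −0.633, −0.621 and −0.621.

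Both runs of mouse 5901 were deep and narrow. On chr14:54304425-54746960 the HCA ratio was −0.34 over 3 windows and that of the own liver −0.0197, on a chromosome that was otherwise 0.222 higher than in the liver. On chr6:41043508-41515707 the HCA ratio was −0.599 over 3 windows and that of the own liver −0.0238. In the other 3 pairs the within-chromosome differences of these stretches were −0.00999 to 0.0254 on Chr14 and −0.0289 to 0.166 on Chr6. The T cell receptor genes Tcra and Tcrb, which are rearranged in the DNA of T cells, lie on Chr14 and Chr6 by their RefSeq entries. No annotation of this genome build was at hand, so whether these windows hold them was not tested.

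**Figure D5:**
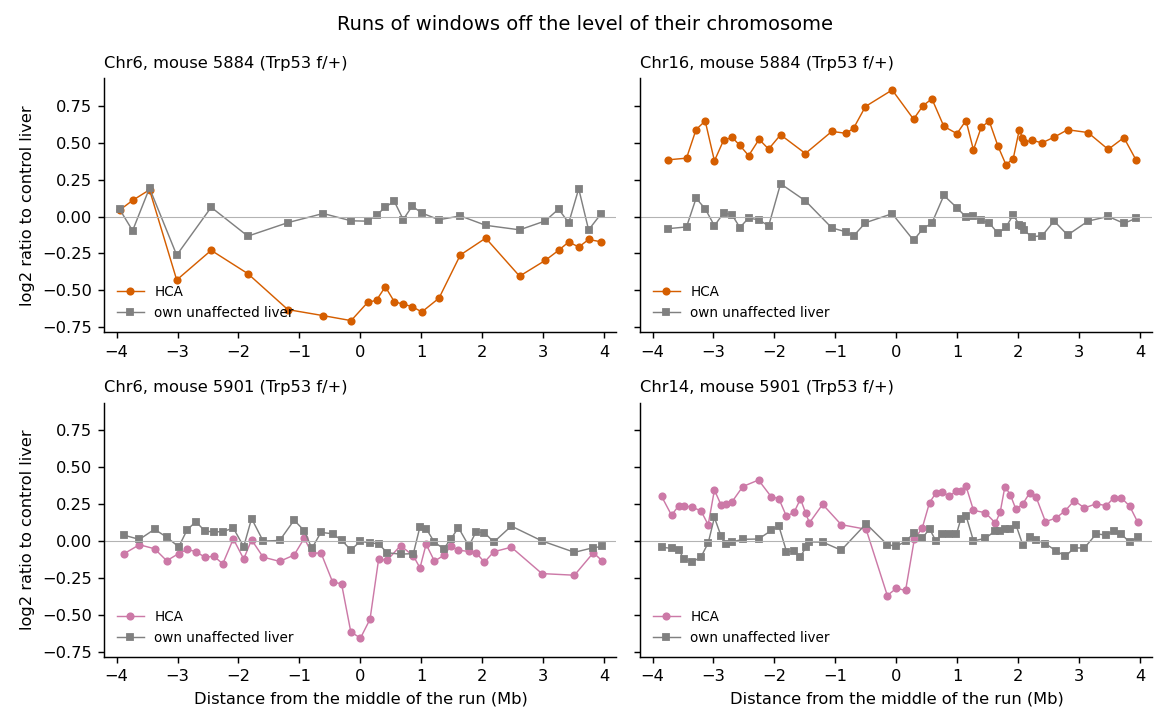
aCGH ratio to control liver (y axis, log2) of the HCA and the own liver in windows around the runs on Chr6 and Chr16 of mouse 5884 and on Chr6 and Chr14 of mouse 5901, by distance from the middle of the run in Mb (x axis). The HCA departs from its surroundings in each panel, to means of −0.6 and 0.761 over the runs of mouse 5884 on Chr6 and Chr16 and of −0.599 and −0.34 over those of mouse 5901 on Chr6 and Chr14, while the livers have run means of −0.0622 to 0.0133.

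Several of the most extreme windows of mice 2430 and 6199 were places where the liver itself departed from the control. The lowest within-chromosome window of mouse 2430, chr2:28360007-28465053 at −0.454, had a ratio of 0.159 in the HCA and 0.486 in the liver, against 0.0629 to 0.097 in the other livers. The highest of mouse 6199, chr7:26735404-27057266 at 0.641, had −1.19 in the HCA and −1.77 in the liver, while HCAs and livers of the other mice were at 0.0831 to 0.42. The HCA and the liver of mouse 6199 thus were both far below the other mice in this window.

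The gene lists could be placed by chromosome only, and their counts stand beside 21.1% of all autosomes called higher and 26.3% called lower. Of the 19 genes known to promote growth in liver tumors, 3 lie on autosomes that were higher (Myc and Ptk2 on Chr15, Mdm4 on Chr1), 5 on autosomes that were lower (Yap1 and Birc2 on Chr9, Mdm2 and Cdk4 on Chr10, Tert on Chr13) and 11 on the others. Of the 19 genes that restrain growth, 3 lie on higher autosomes (Apc and Smad4 on Chr18, Arid2 on Chr15), 4 on lower ones (Keap1 on Chr9, Lats1 and Stk11 on Chr10, Sav1 on Chr12) and 12 on the others. Of the 7 genes mutated in human HCA, 3 lie on lower autosomes (Ctnnb1 on Chr9, Il6st on Chr13, Frk on Chr10) and 0 on higher ones, and of 9 spindle checkpoint genes 2 do (Ttk and Zw10 on Chr9). A chromosome carries many genes that move with it, and these counts say nothing of any single one.

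Differences between p53(f/f) and p53(f/+) pairs, with 2 mice each, passed the threshold on 0 of 19 autosomes (0%) in limma, and 3 had an unadjusted p under 0.05. The largest was on Chr16, with a mean of 0.0013 in p53(f/f) and 0.324 in p53(f/+) pairs (difference −0.323, standard error 0.102, limma adjusted p = 0.0685). HCCs came from 5 other mice, labelled Mad2(f/f) p53ser246+ and aged 12.3 to 16.2 months, of which 3 were male and 2 female. Their paired differences were made in the same way, with the HCCs of mouse 6240 averaged. Against these, 0 of 19 autosomes (0%) passed in limma and 5 had an unadjusted p under 0.05. The nearest was Chr15, with 0.391 in HCA and 0.171 in HCC pairs (difference 0.22, standard error 0.0776, limma adjusted p = 0.131). All HCA mice were female and none carried p53ser246+, so the kind of tumor cannot be told apart from the p53 allele here, and sex differs between the groups as well.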

How the data were processed

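Feature Extraction 10.5.1.1 wrote, in the deposited scanner files, the log10 ratio of Cy5 (sample) to Cy3 (control) for each spot, after background subtraction with spatial detrending and linear dye normalization by the authors. Median spot and background intensities were deposited beside them. A deposited table of the series repeats these log10 ratios. Outlier spots were left out, spots of a probe averaged, ratios turned into log2 and shifted to an autosomal median of 0. This left 221455 autosomal, 11957 X and 606 Y probes on NCBI37. The ratio of a chromosome is the mean of its probes.

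The 4 paired differences were tested against 0 with limma 3.58.1 in R 4.3.3. Tumor and liver of a pair come from the same mouse, and over autosomal probes their deviations from the group means correlated by 0.091 to 0.205 (−0.148 to 0.0821 for other combinations). The number of arrays limits the precision. Gene values were not analysed here for want of gene positions on this build. All autosomes are given, with values per pair for those past the threshold or beyond 0.3, and windows were named by rank. Members, lists and tests were chosen with earlier results of these data known. Alternatives covered background correction, normalization, centring, probe filters, window size, cut-offs, the mouse as a block, each mouse left out, and exact tests. Comparisons with HCCs and between genotypes, runs of windows, and scaling to X were added after the data were seen. The limma fits and the calling of breaks were tested on simulated data, and the other steps were not.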

Additional observations from a re-analysis of the deposited data

Results flagged for a closer look

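Of 23 measures looked at over the 4 pairs, 3 held a pair whose gap to its nearest neighbour took up most of the whole range (Dixon's test at its 95% critical value), and chance alone sets about 1 in 20 groups apart in this way. Chr1 of mouse 2430 was 0.510 higher than in the own liver, with the other pairs at 0.115 to 0.161. Chr7 of mouse 5884 was 0.0863 higher, with the other pairs at −0.0666 to −0.0573. The sum of absolute autosome differences of mouse 2430 was 4.00, with the other pairs at 2.64 to 2.86.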

How the results depend on the processing

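Chr1, Chr3, Chr9, Chr10, Chr12, Chr13, Chr15 and Chr18 passed the threshold in every limma fit run. Without the replicate block 11 autosomes and 3683 windows passed, with Chr16 lost and Chr2, Chr6 and Chr8 gained, and leaving out 1 mouse gave 8 to 12 autosomes and 1628 to 5101 windows. Without mouse 5884, Chr2, Chr6, Chr8 and Chr14 were gained and Chr16 was lost. The same scan day for both arrays (3 pairs) gave 8 autosomes and 2587 windows, and windows of 40 probes gave 2556. Normexp gave 14 autosomes, 3 events and a mean sum of 1.85, and median signals without background correction 9 autosomes, 0 events and 1.65. X was then 0.0318 to 0.444 and 0.407 to 0.556 in place of 0.771 to 1.07. Without background correction the mean difference of every autosome was smaller in size. With normexp, Chr15 was 0.271 in place of 0.391 and Chr3 −0.107 in place of −0.235. Chr14 was 0.107 with normexp in place of 0.0821, so normexp did not shrink every difference. Exact sign flips of 4 pairs have 16 arrangements, of which 2 always reach the observed size, so they cannot pass the threshold and called 0 autosomes. Exact permutation of 4 HCAs called 11 autosomes against their 4 livers (smallest possible p = 0.0286) and 15 against all 9 livers. With ratios divided by the X ratio of the array, exact permutation against the 4 livers called 0, and 10 had an unadjusted p under 0.05. These 10 were all at the smallest possible p of exact permutation, which adjusted to 0.0543 there and to 0.0494 without the division. Chr2 had moved to an exact permutation p of 0.0571. The mean differences of the 10 were larger in size with the division, as on Chr15 (0.456 in place of 0.391). The 0 calls thus do not show smaller differences on these 10. Events numbered 19 at a cut-off of 0.2 and 5 at 0.4. Breaks numbered 5 with segments of at least 20 windows and 3 with steps of at least 0.3. Chr4 turned to 0.0124 and Chr7 to 0.00486 with normexp, and without 1 mouse Chr4 ranged from −0.0533 to 0.00651 and Chr19 from −0.0171 to 0.0576. Within-chromosome windows were 0 in all fits, with 202 to 990 at an unadjusted p under 0.05. Values of single genes and their alternatives were not run, since no gene positions on NCBI37 were at hand. Where no cause is given above, the cause was not tested.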

Other observations

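With steps of at least 0.15 allowed, Chr6 of mice 2430 and 5901 also held breaks. Mouse 5884 then had 7 breaks in place of 9, and its stretch on Chr16 was not called. On Chr6 of mouse 2430 the proximal stretch chr6:3024849-15998609 was at 0.0217 and the rest of the chromosome at −0.159. On Chr6 of mouse 5901 the stretch chr6:39820294-41515707 was at −0.295 between parts at −0.129 and −0.128.

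The X ratio of the HCA minus that of the own liver was −0.123 in mouse 2430, 0.0964 in mouse 5884, −0.0339 in mouse 5901 and −0.173 in mouse 6199. The Y ratio, which in these female mice reflects 606 probes with almost no target DNA, was −3.22 to −2.43 on the 8 arrays.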
